A study of Mus musculus with 2 samples.

Results

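The loci described here are stretches of the mouse genome that were read as RNA in the adrenal gland and that the authors classed as lying between the genes of the annotation used. All transcript models whose gene the authors classed as intergenic were taken from both libraries and merged where they overlapped on the same strand. This gave 3280 loci from 3727 models, out of 184708 models in all (98236 in replicate 1 and 86472 in replicate 2). The RNA came from adrenal gland tissue of C57BL/6J mice, the reference inbred strain, and was read molecule by molecule with long-read RNA sequencing. The 2 libraries form 1 group without any treatment, carry the biological replicate numbers 1 and 2, come from separate biosamples and share 1 donor entry. Age is given as unknown, and 1 label calls the tissue male while the field for sex is not filled in. Nothing says that the libraries came from separate animals, so the spread between them may in part be technical. Ratios below are of replicate 1 over replicate 2, and they compare these libraries, not conditions.

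Transcription in mammals is not confined to annotated genes. RNA polymerase II leaves many promoters in both directions, it can run on past the end of a gene, and long noncoding RNAs, unannotated exons and genes missing from an annotation also give RNA between genes. The adrenal gland joins a cortex that makes steroid hormones to a medulla of chromaffin cells that makes catecholamines. Markers of both were present: 5 cortex markers (such as Star and Cyp11a1) summed to 44069 and 77551 CPM (reads scaled to a library total of 1000000) in replicates 1 and 2, and 5 medulla markers (such as Th and Chga) to 10093 and 23122 CPM. The medulla markers did not move together: Th (2831 and 1489 CPM) and Pnmt (694 and 160) were higher in replicate 1, while Dbh, Chga and Chgb were higher in replicate 2. Of 5 kidney markers Lrp2 alone had a read, 1 in replicate 1, 4 liver markers had none, and 4 adipocyte markers summed to 101 and 42.2 CPM, with Lep and Ucp1 at 0 in both.

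A common fixed position was divergent: 358 of 3280 loci (10.9%, 95% confidence interval 9.87 to 12) began on the very base where a gene of the opposite strand begins. Locus and gene thus lie back to back on 1 start. The promoters of 4 such genes are given here, since they hold the annotated start on which the models of both RNAs lie; they are the 4 of highest mean CPM among divergent loci with reads in both libraries whose start lies in a RefSeq promoter. Each runs 5′ to 3′ on the strand of the gene, covers 250 bases before and 50 bases after its RefSeq start, and is on GRCm38, the same assembly as mm10. Capitals mark matches on either strand to the GC box GGGCGG, to the CCAAT box, to the TATA box TATAAA and to the ETS motif CCGGAAG. Base 251 is the RefSeq start of the gene, and the divergent model is placed from that base (base 250 at Isl1) towards the left. This is an annotated position, and where the reads themselves began is not known to the base.
Selenoi (chr5:30232331-30232630, + strand): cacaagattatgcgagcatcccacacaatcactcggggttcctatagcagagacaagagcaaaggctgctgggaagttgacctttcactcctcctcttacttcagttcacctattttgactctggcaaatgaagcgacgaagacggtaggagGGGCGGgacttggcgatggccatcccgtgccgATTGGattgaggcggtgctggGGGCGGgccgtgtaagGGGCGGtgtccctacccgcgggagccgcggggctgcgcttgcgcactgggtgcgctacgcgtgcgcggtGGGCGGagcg
Tbc1d22a (chr15:86214209-86214508, + strand): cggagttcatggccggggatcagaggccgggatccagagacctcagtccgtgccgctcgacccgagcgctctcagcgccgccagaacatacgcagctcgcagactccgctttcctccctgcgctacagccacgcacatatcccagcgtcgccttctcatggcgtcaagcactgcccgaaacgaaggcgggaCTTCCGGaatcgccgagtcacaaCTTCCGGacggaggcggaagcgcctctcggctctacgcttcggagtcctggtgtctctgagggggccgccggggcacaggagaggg
Isl1 (chr13:116309639-116309938, - strand): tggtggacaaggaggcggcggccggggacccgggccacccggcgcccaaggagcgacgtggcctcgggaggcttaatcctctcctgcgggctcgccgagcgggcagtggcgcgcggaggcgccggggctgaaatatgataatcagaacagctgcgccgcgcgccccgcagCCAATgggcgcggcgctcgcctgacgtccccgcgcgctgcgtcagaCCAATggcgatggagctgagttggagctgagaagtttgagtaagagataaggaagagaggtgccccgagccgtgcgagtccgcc
Acad12 (chr5:121618889-121619188, - strand): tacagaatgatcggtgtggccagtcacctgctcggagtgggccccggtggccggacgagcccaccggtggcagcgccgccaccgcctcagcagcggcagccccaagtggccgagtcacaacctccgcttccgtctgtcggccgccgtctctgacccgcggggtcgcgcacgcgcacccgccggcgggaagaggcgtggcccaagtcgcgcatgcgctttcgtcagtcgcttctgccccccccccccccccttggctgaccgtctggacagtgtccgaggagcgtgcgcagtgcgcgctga
The divergent RNA at Selenoi, an enzyme of phosphatidylethanolamine synthesis, had 25 reads in replicate 1 and 1 read in replicate 2. At Tbc1d22a, a protein with a Rab GTPase-activating domain, it had 17 and 4 reads, and the RefSeq span of Tbc1d22a overlaps this locus. At Isl1, a LIM-homeodomain transcription factor of the sympathoadrenal lineage, it had 1 and 10 reads. At Acad12, of the acyl-CoA dehydrogenase family, it had 8 and 2 reads. The Selenoi promoter holds 4 GC boxes and 1 CCAAT box, that of Tbc1d22a 2 ETS matches and that of Isl1 2 CCAAT boxes, while that of Acad12 has no match, and the 4 hold 26, 33, 37 and 37 CpG dinucleotides. None of the 4 has a TATAAA match in this window.

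Intergenic models held 7256 of 848782 reads in replicate 1, which is 0.855% (95% confidence interval 0.835 to 0.875), and 8838 of 545229 reads in replicate 2, which is 1.62% (1.59 to 1.65). Most of the reads of replicate 2 came from 1 locus: without it the shares were 0.669% and 0.471%, so that replicate 1 stood 1.42-fold higher instead of lower. Replicate 1 had reads at 2801 loci, replicate 2 at 661, and 182 loci had reads in both. Thinned evenly to the depth of replicate 2, replicate 1 would on average keep 1947 of its loci, against the 661 seen in replicate 2. A single read made up 81.3% of the loci in replicate 1 and 81.2% in replicate 2, and 46 loci in replicate 1 and 24 in replicate 2 reached 10 reads. The models were shorter in replicate 1, with a median length of 829 bases, against 2362 in replicate 2; models of annotated genes had medians of 1535 and 2590.5 bases. In bulk tissue, fewer cells of a type and less RNA per cell cannot be told apart in any such difference.

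The most abundant locus lay on the + strand at chr13:55184447-55189154, 15688 bases downstream of Fgfr4, a fibroblast growth factor receptor, and 20628 bases before Nsd1, a histone methyltransferase, both also on the + strand. It had 1578 reads in replicate 1 and 6272 reads in replicate 2, that is 1859 CPM (95% Poisson interval 1769 to 1953) and 11503 CPM (11220 to 11792). It was thus 21.7% of all intergenic reads in replicate 1 and 71.0% in replicate 2. Among 33265 annotated genes, antisense loci and intergenic loci it ranked 40 in replicate 1 and 5 in replicate 2. One unspliced model carried 1568 of the reads in replicate 1 and 6246 in replicate 2, and the model ended on base 55187607 in both libraries, while its first base was 55184733 in replicate 1 and 55184447 in replicate 2. Fgfr4 itself had 21 and 68 reads. The locus was 6.19-fold lower in replicate 1 (log2 ratio -2.63), past the threshold of the test. With the length trend of annotated genes removed, an alternative described with the test below, the log2 ratio was -1.05 and still past the threshold. A further 59 and 3 reads lay there in antisense models of the same strand.

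The next 3 loci had reads in both libraries and were also lower in replicate 1. A locus 12437 bases downstream of Oxnad1, named for an oxidoreductase NAD-binding domain, at chr14:32115639-32120457 (+), had 322 and 694 reads (379 and 1273 CPM). Nearly all of them were in 1 unspliced model, 2611 bases long in replicate 1 and 2607 in replicate 2, whose ends differed by 1 base at the start and 3 bases at the finish, while Oxnad1 had 0 and 11 reads. A locus 4780 bases upstream of Rhbdd2, a rhomboid domain protein of the Golgi, at chr5:135623607-135627838 (+), had 354 and 460 reads (417 and 844 CPM), with the last base of its main model at 135626242 in both libraries. A locus 2647 bases past the 3′ end of Cyp2d22, a cytochrome P450 on the - strand, at chr15:82358022-82367880 (+), had 106 and 156 reads (125 and 286 CPM), and 16 and 6 of these were spliced. The adjusted p (Fisher's exact test, Benjamini-Hochberg over all features) was 4.52e-77 near Oxnad1, 1.36e-22 near Rhbdd2 and 1.85e-10 near Cyp2d22, with folds of 3.36, 2.02 and 2.29 lower in replicate 1. Once the length trend was removed, the log2 ratio near Oxnad1 was -0.56 in place of -1.74 and that near Cyp2d22 -0.62 in place of -1.19, both still called, while that near Rhbdd2 turned to 0.20 (adjusted p = 0.122, exact binomial test).

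**Figure D1:**
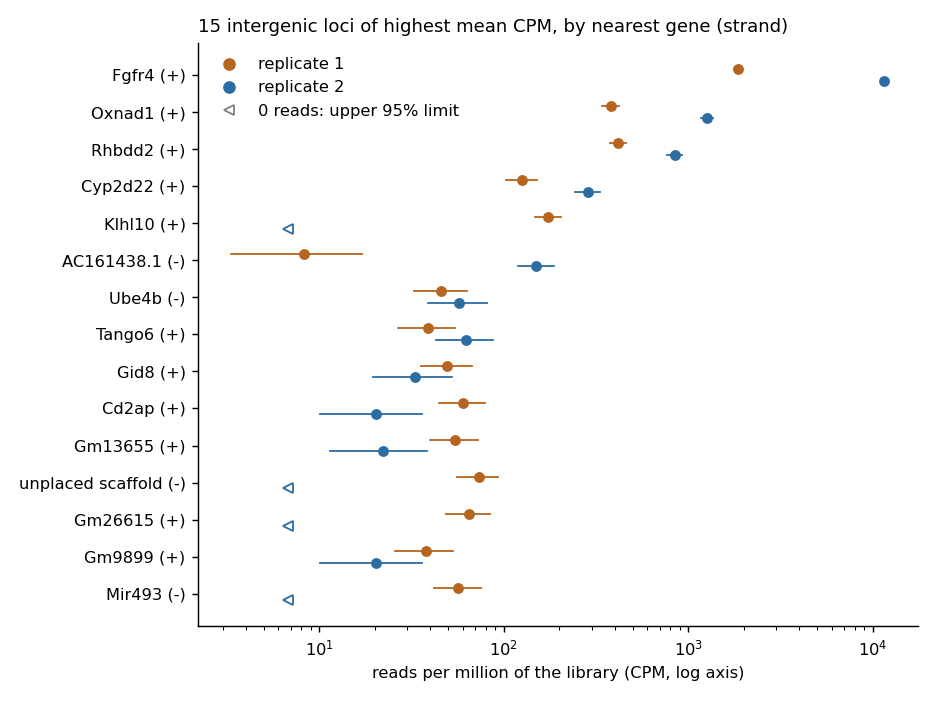
CPM (log axis) for the 15 intergenic loci of highest mean CPM, replicate 1 above replicate 2 in each row, with exact Poisson 95% intervals as lines; rows carry the nearest annotated gene and the strand of the locus. The top locus has 1859 CPM in replicate 1, against 11503 in replicate 2, and 4 loci have intergenic reads in replicate 1 and none in replicate 2 (open triangles at the upper limit that 0 reads allow). Same-strand reads of other classes are not drawn. At the open triangles these were, in replicate 2, 45 near Gm26615, 5 at Klhl10 and 3 on the unplaced scaffold. The row near AC161438.1 leaves out 187 such reads of replicate 1, with which the locus has 194 and 82 reads.

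Of the 15 loci of highest mean CPM, 11 had reads in both libraries and 7 had no spliced model. A locus near Ube4b, a ubiquitin ligase, at chr4:149434067-149438829 (-), had 39 and 31 reads (46 and 56.9 CPM, adjusted p = 0.462, Fisher's exact test), and a locus near Tango6 at chr8:106676640-106679360 (+) had 33 and 34 reads (38.9 and 62.4 CPM, adjusted p = 0.0871, same test). The libraries could not be told apart at either. A locus 629 bases downstream of Gid8, a subunit of a ubiquitin ligase complex, at chr2:180719362-180722214 (+), had 42 and 18 reads, and it overlaps the span that RefSeq gives Gid8. Its log2 ratio of 0.57 did not pass the test, but it did with TMM scaling, DESeq2 scaling or the length trend removed (adjusted p = 0.0231, 0.0171 and 4.31e-03, exact binomial test). Higher in replicate 1 were a locus near Cd2ap, a cytoskeletal adaptor, at chr17:42890268-42895179 (+), with 51 and 11 reads (2.98-fold, adjusted p = 8.66e-04 by Fisher's exact test), and one at chr2:75638368-75640171 (+) with 46 and 12 reads (2.46-fold, adjusted p = 8.09e-03). The second was not called with the length trend removed (log2 ratio 0.91 in place of 1.26, adjusted p = 0.0915, exact binomial test). A single unspliced model on an unplaced scaffold with no annotated gene had 62 reads in replicate 1 and none in replicate 2, where 3 reads lay in models of another class; with the length trend removed it was not called (adjusted p = 0.117, exact binomial test). At chr12:109581016-109582212 (-), 48 reads in replicate 1 and none in replicate 2 fell 701 bases from Mir493, and the difference was at least 10.3-fold. This locus overlaps the RefSeq span of Rtl1, an imprinted gene derived from a retrotransposon.

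By the nearest gene, 950 of 3277 loci (29.0%) lay downstream of a gene of the same strand, 883 (26.9%) were divergent, meaning on the 5′ side of a gene of the opposite strand, 774 (23.6%) were convergent, on the 3′ side of such a gene, and 660 (20.1%) lay upstream of a gene of the same strand. Only 10 loci overlapped a gene by at least 2 bases, all with a spliced model, and 3 lay on sequences without any gene. The nearest gene was protein-coding for 58.2% of the loci, a processed pseudogene for 15% and a lincRNA for 11.4%. The median distance was 3565 bases (quartiles 746 and 14575), and 270 loci lay more than 50000 bases away. Among the 182 loci of both libraries the median distance was 1706 bases, 4 lay beyond 50000 bases, and 28.0% were downstream on the same strand, 27.5% divergent, 22.5% upstream on the same strand, 18.7% convergent and 3.30% overlapping.

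**Figure D2:**
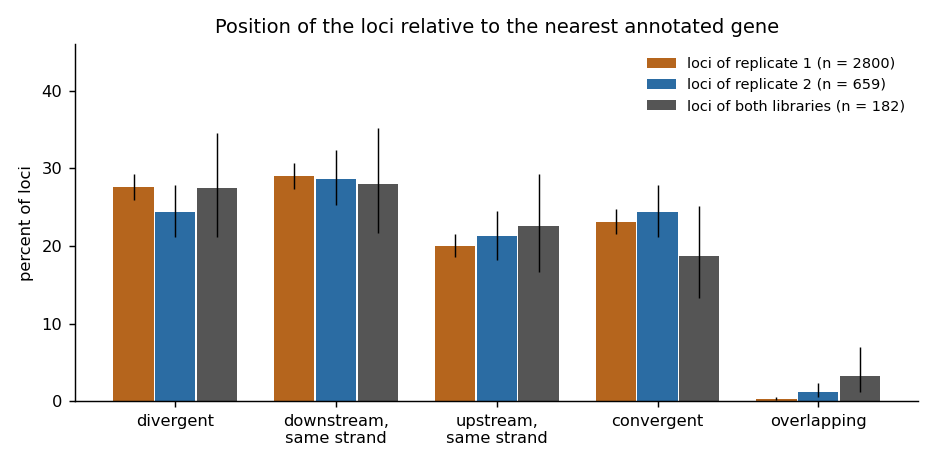
Percent of loci (vertical axis) in each position relative to the nearest annotated gene, for loci with reads in replicate 1, in replicate 2 and in both, with exact Clopper-Pearson 95% intervals. Loci downstream of a same-strand gene make up 29.0% in replicate 1, 28.7% in replicate 2 and 28.0% of the loci of both.

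The ends of many loci fell exactly on ends of annotated genes. At the divergent starts, 358 loci shared the base, 4 began up to 500 bases before the opposite gene and 59 more than 500 and up to 1000 bases before it. Of the 358 starts, 333 were at protein-coding genes. Past the 3′ end of a gene of the same strand, 154 loci shared the last base, none began within 300 bases of it and 117 began more than 300 and up to 1000 bases beyond. Such ends sit on annotated positions with an empty stretch beside them, so the ends of these models are not read ends to the base; the rule that set them is not given in the sources used here. How reads were given a strand is also not given there. The divergent loci had 605 reads in replicate 1, at 315 loci, and 114 in replicate 2, at 74 loci, and 31 loci had reads in both. Their longest model had a median of 934 bases among the loci read in replicate 1, against 2301.5 among those read in replicate 2, and 37 of the 358 had a spliced model. The shared base was judged on the merged locus, for the 358 as for the 154. Reads counted at such a locus can therefore lie in a model that does not reach that base.

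**Figure D3:**
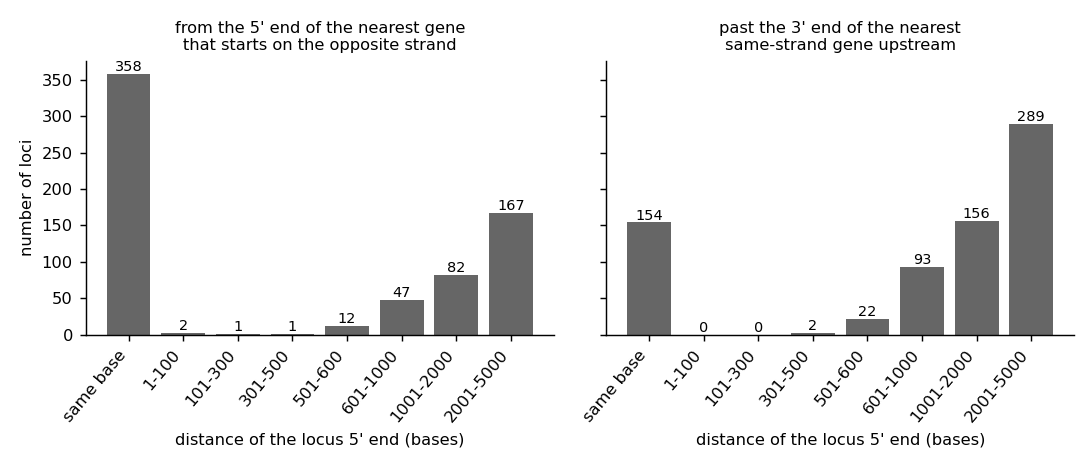
Number of loci by the distance in bases of their 5′ end from the start of the nearest opposite-strand gene (left) and from the end of the nearest upstream gene of the same strand (right), both libraries together. The bars at the same base hold 358 and 154 loci, and the bins next to them hold 0 to 2.

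Genes with a divergent locus had more reads than the median protein-coding gene. Of the 333 protein-coding genes that share their start with a locus, 310 (93.1%) had reads in both libraries, with medians of 23.6 and 27.5 CPM, while 52.5% of all 22028 protein-coding genes had reads in both and the medians were 2.36 and 1.83 CPM. Where a locus lay divergent from a protein-coding gene without touching it, 70.9% of 244 genes had reads in both. The share was 79.0% of 434 genes with a same-strand locus downstream that did not touch them, 75.9% of 290 with one upstream and 78.6% of 355 with a convergent one. The RefSeq promoters that hold a divergent start (232 of the 358 loci matched one) had a median of 26 CpG dinucleotides and 64.7% G or C, against 21 and 61% in 9707 promoters of protein-coding genes with at least 10 reads, and 7 and 52.7% in all 32817 promoters of the table, which include the 232. GGGCGG stood in 75% of the promoters at divergent starts, against 63.8% of those of read genes and 35.6% of all. For CCGGAAG the shares were 23.7%, 19% and 8.86%. TATAAA stood in 2.16% of them, against 6.93% and 13.6%, and CCAAT in 34.9%, against 37.1% and 37.4%. Each promoter counts once per motif, both strands were searched and matches may overlap. These shares are descriptions, and a match is not a site.

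Besides the printed promoters, the divergent loci with most reads stood at Prep, Prkce, Rtl1 and Bicra. Prep, a prolyl endopeptidase, had 19 and 2 divergent reads at chr10:45065315-45067203 (-), a locus that overlaps the RefSeq gene 2310075K07Rik. Prkce, a protein kinase C, had 10 and 4 at chr17:86165327-86167785 (-). Rtl1 had 16 and 0 at chr12:109600330-109602178 (+). Bicra, a subunit of a chromatin remodelling complex, had 11 and 1 at chr7:16047921-16051228 (+). RefSeq spans overlap these loci too: that of Gm5817 at Prkce, and those of Rtl1 and Bicra themselves at Rtl1 and Bicra. By RefSeq, the last 2 loci thus do not lie wholly outside the gene. Replicate 1 was higher at Selenoi (16.1-fold, adjusted p = 1.61e-04, Fisher's exact test), Prep (6.10-fold, adjusted p = 0.0105) and Rtl1 (adjusted p = 1.02e-03), while it was lower at Isl1 (log2 ratio -3.15, adjusted p = 1.31e-03). With the length trend removed Rtl1 alone of these 4 was called (adjusted p = 4.41e-03, exact binomial test): the log2 ratio was 0.41 at Selenoi (adjusted p = 1), 0.32 at Prep (adjusted p = 0.881) and -1.60 at Isl1 (adjusted p = 0.222). Of the reads of the genes themselves, Selenoi had 6 and 9, Prep 39 and 101, Isl1 16 and 3. At Selenoi 23 of the 25 divergent reads of replicate 1 were spliced, and the 1 read of replicate 2 was not.

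The 154 loci that continue from the last base of a gene on its strand had 392 reads in replicate 1 and 58 in replicate 2, and 13 had reads in both. The locus at Klhl10, a ubiquitin ligase adaptor of spermatids, at chr11:100457022-100461668 (+), held 148 of them in replicate 1 and none in replicate 2, past the threshold of the test (adjusted p = 3.33e-31, Fisher's exact test), while Klhl10 itself had 2 and 0 reads. It runs into RefSeq spans of Klhl10 and Klhl11, and 5 reads of replicate 2 lay at this place in antisense models of the same strand; with these counted the locus was 19-fold higher in replicate 1. At Optn, an autophagy receptor, a locus at chr2:5019008-5020642 (-) had 23 and 1 reads, while 0 and 21 reads lay in models of Optn that reach into it. The RefSeq span of Optn overlaps this locus on the same strand. Of 116 protein-coding genes with such a locus, 88.8% had reads in both libraries.

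Some of the loci lay next to genes of adrenal function. Of 55 such genes, 29 of steroid and cholesterol metabolism and its control and 26 of chromaffin cells, 15 (27.3%) were the nearest gene of a locus, against 1124 of the 9483 protein-coding genes with at least 10 reads (11.9%), a floor that 53 of the 55 pass. The sets were not matched above this floor, and the part of read level in these shares was not tested. The list includes genes of many reads, such as Star with 11962 and 15435. There were 20 loci with a listed gene nearest, 3 of them with at least 10 reads and 2 with reads in both libraries. Loci next to the steroid and cholesterol genes summed to 62 and 10 reads, and those next to chromaffin genes to 8 and 1. Kcnk3, a potassium channel of zona glomerulosa cells, had 2 of the 3 larger loci: 17 and 3 reads began on its last base (chr5:30625271-30627596, +), and 29 and 0 reads lay 3936 bases past its end (chr5:30629207-30633254, +). The gene itself had 407 and 208 reads. At Cyp11b2, the aldosterone synthase of the zona glomerulosa, a locus at chr15:74849135-74851010 (-) had 5 and 5 reads. Only its model of replicate 2 began on the last base of the gene, while that of replicate 1 began at base 74850176, further downstream. Models of Cyp11b1 and Cyp11b2 with 7 and 109 reads also reach into this locus. Cyp11b2 itself had 46 and 844 reads, and its RefSeq span overlaps this stretch. Near Th, which makes the precursor of all catecholamines, 2 downstream loci had 3 and 2 intergenic reads in replicate 1 and none in replicate 2. Models of Th that reach into the first of these loci had 1 and 20 reads in replicates 1 and 2, and those at the second 0 and 1.

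A spliced model was found at 266 of 3280 loci (8.11%). The share was 30.8% among loci of both libraries, and 6.22% and 9.81% among those read in replicate 1 or replicate 2 alone. Of 606 introns, 447 were seen in replicate 1, 215 in replicate 2 and 56, at 27 loci, in both with identical ends; these are 12.5% of the introns of replicate 1 and 26% of those of replicate 2. Shared introns were 75 to 59400 bases long, with a median of 1563.5. The locus with most exons among the 15 of highest mean CPM ran over 35219 bases at chr5:30551230-30586448 (+), with up to 6 exons, between Cib4 (5394 bases away) and Kcnk3 (1722 bases away), and overlaps Gm9899 of the other strand. It had 32 and 11 reads (37.7 and 20.2 CPM), of which 30 and 7 were spliced, and its intron at 30553036 to 30554128 was in 22 and 7 reads. RefSeq also places Gm40272 there. A second such locus, 20620 bases from Cnr1, the cannabinoid receptor of neurons, at chr4:33889459-33903973 (-), had 27 and 8 reads and up to 6 exons, and overlaps RefSeq Gm33105 on the same strand. Neither passed the test between the libraries (adjusted p = 0.119 and 0.0827, Fisher's exact test), but both did with TMM scaling (adjusted p = 0.0108 and 0.0111, exact binomial test) and with DESeq2 scaling (adjusted p = 0.0106 and 0.0110), each higher in replicate 1.

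The other loci, named for reads in both libraries and a spliced model in either, varied in how much of their RNA was spliced. At chr7:28256358-28261405 (+), near Eid2, 0 of 2 and 1 of 24 reads were spliced. At chr6:148635113-148640133 (-), near a small nucleolar RNA gene, 0 of 16 and 1 of 18 were. At chr12:111698540-111702670 (+), 412 bases before the lincRNA Gm36635, 0 of 4 and 15 of 17 were. At chrX:137358690-137463449 (+), 107159 bases before Il1rapl2, 11 of 14 and 0 of 2 were. At chr18:77746587-77762116 (+), which overlaps Haus1 on the other strand, 6 of 7 and 4 of 5 were. Of the 10 loci named this way, 4 shared an intron between the libraries.

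Neighbouring internal exons of 127 and then 61 bases recurred; such pairs were looked for after the introns were seen, and no other of the 123 pairs of lengths stood in more than 1 locus. This pair stood in 4 of the 54 loci that had a model of at least 4 exons. These were chr5:104571634-104639911 (+), with the pair in 3 and 4 reads, chr5:109866389-109892761 (+), in 1 and 5 reads, chr17:17179291-17206385 (+), in 5 and 2 reads, and chr17:17005136-17041383 (+), in 3 and 0 reads. The nearest genes were the lincRNAs D930016D06Rik and Gm26779 for the first and second, Gm5165 for the third and Zfp960 for the last. By RefSeq, the first overlaps Zfp33b on the same strand, and also Gm31255 and Gm45931. The second overlaps AB010352 on the same strand, and also Gm35089. The third overlaps Gm38396 and the last Gm51425, neither of which carries a zinc finger name. In the annotation 153 of 20839 genes with at least 4 exons held the same pair (0.734%), and 54 of these (35.3%) carried a zinc finger gene name, against 411 of all 20839 (1.97%). As background, KRAB zinc finger genes encode the boxes of the KRAB domain in short exons of their own ahead of a long zinc finger exon.

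RefSeq, on the same assembly, gave a gene span over 994 loci (30.3%) on either strand, over 80 of the 182 loci of both libraries (44.0%) and over 5 of the 15 loci of highest mean CPM. On the strand of the locus, 402 loci had such an overlap, with a strand known for 54.1% of the RefSeq genes. An overlap of 2 bases was enough, and it can be with a neighbour on the other strand. It therefore does not show that RefSeq annotates the locus itself. The loci are unannotated in the gene set the authors used, and how many of them RefSeq annotates was not settled.

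Whether a locus was read again in the other library went with its number of reads. Loci with 1 read in replicate 1 had a read in replicate 2 in 2.28% of cases (95% interval 1.71 to 2.99), against 11.4% of antisense loci and 38.9% of annotated genes with 1 read. With 10 to 19 reads it was 66.7%, against 54.9% of antisense loci and 94.9% of annotated genes. With 5 to 9 reads it was 32.9% (22.7 to 44.4), against 37.9% and 90.0%, and with 20 or more 68.0% (46.5 to 85.1), against 70.3% and 97.8%. From replicate 2 to replicate 1 the shares were higher: 18.1% of loci with 1 read, against 23.2% of antisense loci and 60.2% of annotated genes. With 2 to 4 reads it was 61.0%, against 50.9% and 84.2%, and with 5 to 9 reads 77.8%, against 71.9% and 95.3%. With 10 to 19 reads it was 92.3% of 13 loci (64.0 to 99.8), against 88.1% and 98.9%. With 20 or more it was 81.8% of 11 loci (48.2 to 97.7), against 94.4% and 99.8%. The median length of what was read differed too: loci with 1 read measured 752 bases in replicate 1, against 2219 in replicate 2, against 1612.75 and 1855 bases for annotated genes with 1 read, and its part in these shares was not tested. In the 182 loci of both libraries the main models ended within 50 bases of each other at 99 loci (54.4%) and began within 50 bases at 75 (41.2%). Of these 182 loci, 31 had their start on the start of an opposite-strand gene and 13 on the last base of a same-strand gene. Model ends that sit on annotated positions are not read ends to the base, so closeness there does not show that the reads agreed.

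**Figure D4:**
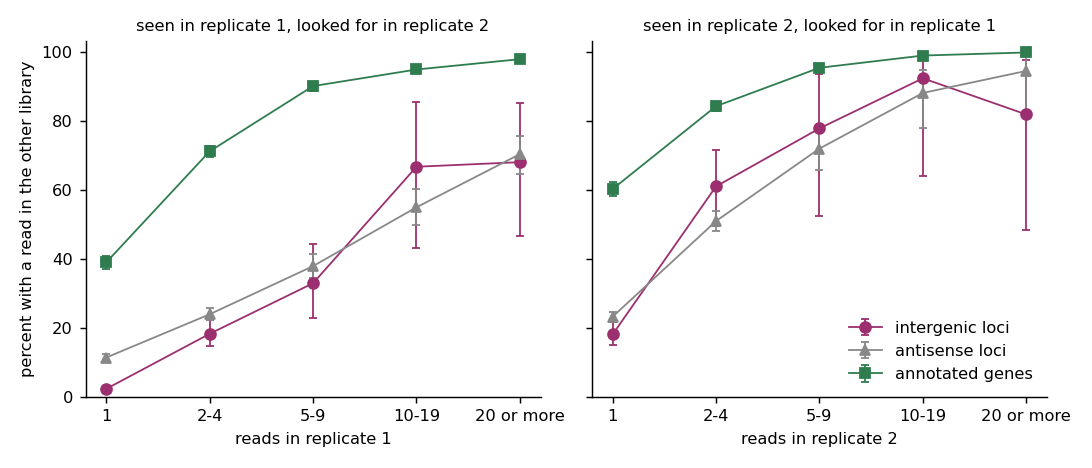
Percent of loci or genes with at least 1 read in the other library (vertical axis) by the number of reads in the first (horizontal axis), from replicate 1 to replicate 2 on the left and the reverse on the right, with exact Clopper-Pearson 95% intervals. Intergenic loci of 1 read reach 2.28% on the left and 18.1% on the right, below annotated genes at 38.9% and 60.2%.

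Some loci seen in 1 library only had RNA at the same place in the other library under another class. Among the loci of at least 10 reads, 15 had no intergenic read in replicate 2 and 3 had none in replicate 1; at 6 of the 15 and 2 of the 3 the other library had reads in same-strand models of another class, with at least 50% of their span in the locus. At chr18:26003111-26006008 (-) the intergenic class had 7 reads in replicate 1 and 82 in replicate 2, while antisense models there had 187 and 0, which makes 194 and 82 in all. The log2 ratio was -4.03 on intergenic reads alone and 0.60 with all. At chr4:133096292-133101550 (+), near the lincRNA Gm26615, 55 and 0 intergenic reads became 55 and 45. At chr11:5555056-5557751 (-) 43 and 0 became 43 and 17, at chr6:95039468-95041576 (-) 0 and 23 became 19 and 23, and at chr18:76165084-76216362 (+) 0 and 24 became 15 and 24, the 15 in models of the miRNA gene Mir6358. Downstream of Kcnk3, 29 and 0 became 29 and 19. Over all loci this was rarer: 32 of 2619 loci read in replicate 1 alone (1.22%) and 20 of 479 read in replicate 2 alone (4.18%) had such reads in the other library.

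**Figure D5:**
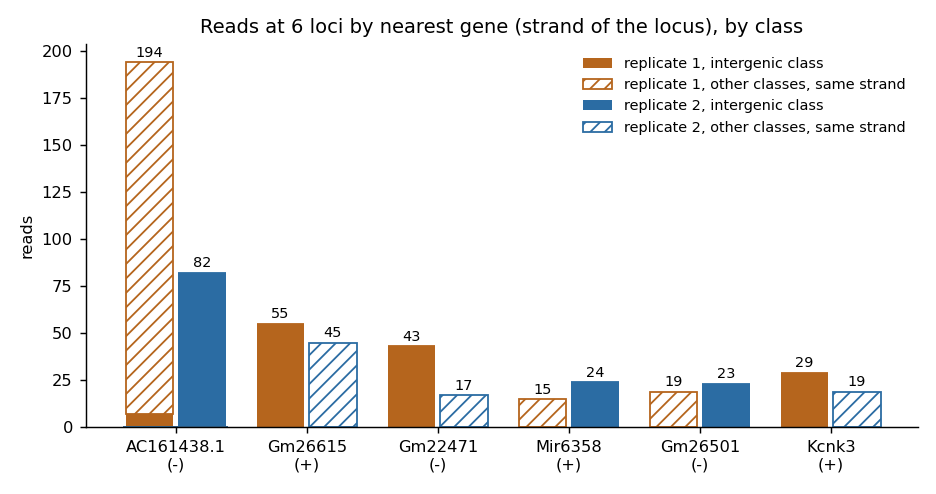
Reads (vertical axis) at 6 of the named loci, labelled by nearest gene and strand of the locus, replicate 1 left of replicate 2; solid bars are reads of the intergenic class and hatched bars same-strand reads of other classes in the same place. With both, the locus near AC161438.1 has 194 and 82 reads and that near Gm26615 has 55 and 45.

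Of the 68 loci with at least 10 reads summed, 38 differed between the libraries (55.9%), 25 higher and 13 lower in replicate 1. Over all 10744 features tested, 64.4% differed: 30.2% were higher in replicate 1 and 34.2% lower. The loci had a median log2 ratio of 1.11, against 2.42 for 797 antisense loci, -0.38 for 9879 annotated genes and -0.19 for all features. Of the intergenic loci 36.8% were called higher in replicate 1, against 58.8% of the antisense loci and 27.9% of the annotated genes. Ratios went with the length of what was read: the 8 loci under 1000 bases had a median of 3.55, the 24 of 1000 to 2000 bases 2.37, the 27 of 2000 to 3000 bases -0.57 and the 9 of 3000 bases or more -1.82, and annotated genes had 3.31, 1.16, -0.96 and -1.56 in the same bins. With the length trend of the annotated genes removed, 24 of the 68 loci differed (35.3%), 15 higher and 9 lower in replicate 1, while 36.6% of all features did, 20.2% higher and 16.4% lower. Of the 24 loci, 18 were called in the same direction as before. TMM and DESeq2 scaling each called 47 of the 68, while 62.6% and 62.5% of all features were called, and with same-strand reads of other classes added 37 of 75 loci were, beside 64.3% of all features. Among the loci of lowest ratio not yet described, that near Eid2 had 2 and 24 reads (adjusted p = 8.11e-08, Fisher's exact test) and one 901 bases before Cpeb4, on the other strand at chr11:31870099-31871310 (-), had 0 and 13 reads (at least 6.75-fold lower in replicate 1).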

How the data were processed

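Per library the authors deposited whole read counts, 1 row a transcript model, and a model annotation with a class for each gene. The build was mm10 with GENCODE M21, per the text file of each library, and TALON is the source of the unannotated models per the file headers. Aligner and platform: not given in the sources used here. Counts were not normalized. Here, models of the intergenic gene class were merged by overlap on the same strand, and gene positions came from GENCODE M21. Features (annotated genes, antisense loci, intergenic loci) with at least 10 reads summed were compared by Fisher's exact test (two-sided), their reads against all other reads, Benjamini-Hochberg adjusted over all features, threshold 0.05. This takes reads as independent. Depth was 848782 and 545229 reads, so 1 read is 1.18 and 1.83 CPM. Log2 ratios were taken after adding 1 CPM, which understates low loci. A fold against 0 uses 3 reads and gives a lower bound. Clopper-Pearson and Poisson 95% intervals cover counting error only. The test was checked on simulated data with counting error alone. That check leaves out the length trend and any other spread between these libraries, so it does not show how the calls hold here.

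Named are the 15 loci of highest mean CPM, the next 10 spliced loci of both libraries, the 5 highest and 5 lowest ratios past the threshold, and loci of at least 10 reads nearest to an adrenal gene. Further loci, among them those at shared gene ends, were chosen after their values were seen. Members, lists and rules were chosen with earlier results of these data known. Alternatives used TMM (edgeR 4.0.16) or DESeq2 (1.42.0) scaling, or a lowess length trend over annotated genes (statsmodels 0.14.6), with a two-sided exact binomial test, R 4.3.3, Python 3.11.15 and scipy 1.17.1. Sequences of the loci were not used here. RefSeq promoters and gene spans are of GRCm38.p6.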

Additional observations from a re-analysis of the deposited data

How the results depend on the processing

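Merging across gaps of 1000 bases, by exon overlap or without regard to strand left the number of loci and those of both libraries within 1.5 times; the number that differed was recomputed for the gaps alone, with 38. With models of at least 2 reads there were 545 loci, 60 of both libraries, and read shares of 0.564% and 1.51%; without the top locus the shares were 0.669% and 0.471%. Leaving out 1 library gave 661 to 2801 loci and 7.35% to 13.8% with a spliced model, which was 35.3% at 10 reads or more and 30.8% in both libraries. Loci within 5000 bases downstream of a same-strand gene were 21.8%, and 20.9% to 25.9% with 1 library left out, 8.26% within 1000 and 30.1% within 10000 bases, 16% with protein-coding genes, 27.9% at 10 reads or more and 17.1% without those that share the last base of the gene. TMM and DESeq2 scaling moved all log2 ratios up by 0.43 and 0.45, and each called 47 loci (69.1%), 34 of them higher in replicate 1 (72.3%); of all features 62.6% and 62.5% were called, 58.7% and 58.9% of these higher. With the length trend removed, 24 were called, the locus near Rhbdd2 turned to 0.20 (not called), and that at Cyp11b2 was called (log2 ratio -3.02, adjusted p = 7.44e-03, exact binomial test). With same-strand reads of other classes added, an alternative chosen after the data were seen, 37 of 75 loci were called, and the log2 ratio turned to 0.60 at chr18:26003111-26006008 (called), -0.34 near Gm26615 and -0.028 downstream of Kcnk3 (neither called). The cause was not tested. No paired analysis was possible because there is 1 group. Most loci rest on 1 read, which limits every count of loci.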
